A study of Mus musculus with 32 samples.

Results

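The Usp17-like genes of the mouse encode deubiquitinases, enzymes that cut ubiquitin off other proteins, and 5 of them were followed here through the first cell cycles of the embryo: Usp17la, Usp17lb, Usp17lc, Usp17ld and Usp17le. They were chosen by name, with earlier results of these data known, and are 5 of the 55385 genes listed for each library. Total RNA was sequenced in wild-type (WT) embryos made by fertilization in vitro from B6D2F1/J females, 6 to 8 weeks old, and B6D2F1/J males, in 16 libraries that form 8 groups of 2. In the first experiment, embryos had been cultured from 4 to 20 hours post insemination (hpi) with A-485 at 10 µM, which blocks the acetyltransferases CBP and p300, or with the solvent DMSO, and were collected as zygotes or at the early or late 2-cell stage. In the second, late 2-cell embryos had been cultured with 50 nM trichostatin A (TSA), an inhibitor of histone deacetylases, or with DMSO from 8 to 28 hpi, so that each experiment had its own late 2-cell DMSO group. Zygotes were collected while A-485 was present, whereas the late 2-cell embryos of the first experiment had been washed free of it. Libraries were made from whole embryos, so that fewer responding cells and less RNA per cell cannot be told apart. The labels do not say whether the 2 libraries of a group came from separate collections of embryos, and the tests therefore measure the spread between libraries only. Library batches are not given either. Stages of the first experiment, grouped here by treatment, may also differ in batch, which cannot be told apart from stage. Open chromatin was measured by ATAC-seq at the late 1-cell and the early 2-cell stage, again with A-485 or DMSO.

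In this family, the mouse genes were first described under the names Dub1 (Usp17la), Dub1a (Usp17lb), Dub2 (Usp17lc), Dub2a (Usp17ld) and Dub3 (Usp17le), as immediate-early genes of blood cells that cytokines switch on for a short time. The genes are short, lie in tandem among olfactory receptor genes, and code for cysteine proteases of the ubiquitin-specific protease class. Genes of the same kind are known to be switched on in 2-cell embryos, during the activation of the zygotic genome, and in cultured cells that express the homeobox factor Dux.

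All members lie on chromosome 7 and are protein-coding in the GENCODE M21 annotation of GRCm38, in 2 groups. Usp17ld (ENSMUSG00000057321.2, chr7:103249737-103252505, minus strand) and Usp17lc (ENSMUSG00000058976.4, chr7:103415072-103419880, plus strand) are 162566 bp apart. After a gap of 1348168 bp follow Usp17le (ENSMUSG00000043073.10, chr7:104768049-104777470, minus strand), Usp17lb (ENSMUSG00000062369.2, chr7:104840257-104842603, minus strand) and Usp17la (ENSMUSG00000054568.7, chr7:104857009-104862667, plus strand), which together span 94619 bp. The copies are close in sequence. The coding sequences of Usp17lc and Usp17ld were 98.41% identical over their whole length, and the other pairs ranged from 90.74% identity (Usp17lb and Usp17le) to 94.49% (Usp17la and Usp17le). Even so, most stretches of read length told the copies apart. Of all 75-base words in the transcripts, 92.3% of those of Usp17la, 85.1% of Usp17lb, 84.7% of Usp17le, 64.3% of Usp17lc and 56.6% of Usp17ld occurred in no other gene. The values of Usp17lc and Usp17ld are therefore the least certain as single genes, because reads that fit both had to be divided between them. RSEM's own posterior standard deviation of the count, in libraries with at least 30 counts of the gene, reached 8.25% of the count for Usp17ld and 4.02% for Usp17lc, and stayed at or under 1.36% for the other 3.

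The start regions carry a shared stretch. The RefSeq promoter table of GRCm38.p6 holds 4 of the 5 members, and a 131-base stretch could be lined up in all 4 without gaps. It is shown so that the start regions of the copies can be compared, and capitals mark the CCAAT word in its reverse form ATTGG and the TATA-type hexamer.
Usp17ld, chr7:103252580-103252710, minus strand: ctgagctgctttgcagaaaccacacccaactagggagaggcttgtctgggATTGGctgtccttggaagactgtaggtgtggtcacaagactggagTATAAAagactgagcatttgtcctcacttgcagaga
Usp17lc, chr7:103416513-103416643, plus strand: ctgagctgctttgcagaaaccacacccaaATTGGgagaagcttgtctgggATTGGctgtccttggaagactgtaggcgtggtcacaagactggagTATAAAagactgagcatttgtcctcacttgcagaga
Usp17lb, chr7:104842579-104842709, minus strand: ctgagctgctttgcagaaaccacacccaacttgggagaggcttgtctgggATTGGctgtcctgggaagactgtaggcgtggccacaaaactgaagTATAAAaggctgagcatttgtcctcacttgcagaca
Usp17la, chr7:104856875-104857005, plus strand: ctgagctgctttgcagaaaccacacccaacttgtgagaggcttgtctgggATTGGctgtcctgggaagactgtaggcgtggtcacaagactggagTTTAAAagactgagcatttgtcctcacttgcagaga

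Against Usp17lc, the stretch differed at 4 bases in Usp17ld, 5 in Usp17la and 8 in Usp17lb. The hexamer read TATAAA in Usp17ld, Usp17lc and Usp17lb and TTTAAA in Usp17la, and it began 110, 88, 31 and 46 bases before the RefSeq start of Usp17ld, Usp17lc, Usp17lb and Usp17la. In GENCODE M21 the stretch is intergenic at Usp17ld and Usp17la, lies in an intron of a longer Usp17lc model, and ends in the first 25 exonic bases of Usp17lb. TATAAA, searched on both strands, was present in 3 of the 4 member promoters and in 13.6% of the 32851 promoters of the table, each of 300 bases. CCAAT was present in all 4 and in 37.4% of promoters. None of the 4 held GGGCGG (35.7% of promoters), GGATTA (7.06%), TCAAGGTCA (0.423%) or GATTNAATC (0.268%), the core of a site bound by Dux-type homeodomains.

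The libraries held 13206163 to 32585987 expected counts, with a median of 22730517.5. Levels are given as FPKM, a fragment count corrected for effective transcript length and for library size. The 12 oocyte and early embryo markers summed to 1221 to 4437 FPKM in every library and none was at 0. The summed markers of cumulus cells lay between 0.73 and 13.7 FPKM, those of sperm between 1.25 and 18.9 and those of immune cells between 1.71 and 8.54. At late 2-cell the cumulus cell markers summed to 3.79 to 3.94 FPKM after A-485 against 7.94 to 11.9 with DMSO, and to 4.25 to 4.70 with TSA against 11.9 to 13.7 (7 tested, 2 called higher and 1 lower after A-485, 1 lower with TSA). Most of the DMSO sums was Amhr2, at 6.95 to 10.67 FPKM against 0.04 to 0.65 after A-485, and at 11.02 to 12.68 against 2.07 to 2.50 with TSA. Foxl2 went the other way after A-485, from 0 to 0.09 FPKM with DMSO to 1.47 to 1.63. Has2 did so too, from 0.17 to 0.19 FPKM to 1.03 to 1.13. The sums thus follow mainly a single gene, and the part of these markers in the changes below was not tested. Red blood cell and fibroblast markers moved with the late 2-cell treatments too and are given there. The share of counts from mitochondrial protein genes was 0.795 to 1.06% in zygotes, 2.24 to 2.71% in all 2-cell DMSO and early 2-cell A-485 libraries, 3.66 and 3.72% in the TSA libraries and 5.43 and 5.35% in the late 2-cell A-485 libraries. It moved with the groups, and its part in the changes below was not tested beyond a rescaling to these genes, given where it changed a result.

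The family went from a faint signal in the zygote to a high one in the early 2-cell embryo, and it remained high at late 2-cell. Summed over the 5 genes, the level was 8.07 ± 0.0141 FPKM (SD, n = 2 libraries here and throughout) in DMSO zygotes, 199 ± 8.09 in early 2-cell embryos, and 146 ± 7.14 (A-485 experiment) and 116 ± 11.7 (TSA experiment) in late 2-cell embryos. With A-485 it was 1.15 ± 0.396 in zygotes, 8.41 ± 0.297 at early 2-cell and 32.2 ± 6.17 at late 2-cell. With TSA it was 305 ± 35.7 at late 2-cell, the highest of the 8 groups. Early 2-cell embryos that had developed in A-485 thus carried about the level of untreated zygotes. Usp17lc had the highest FPKM of the 5 in every library, with 36.0 to 57.3% of the summed FPKM as group means.

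**Figure D1:**
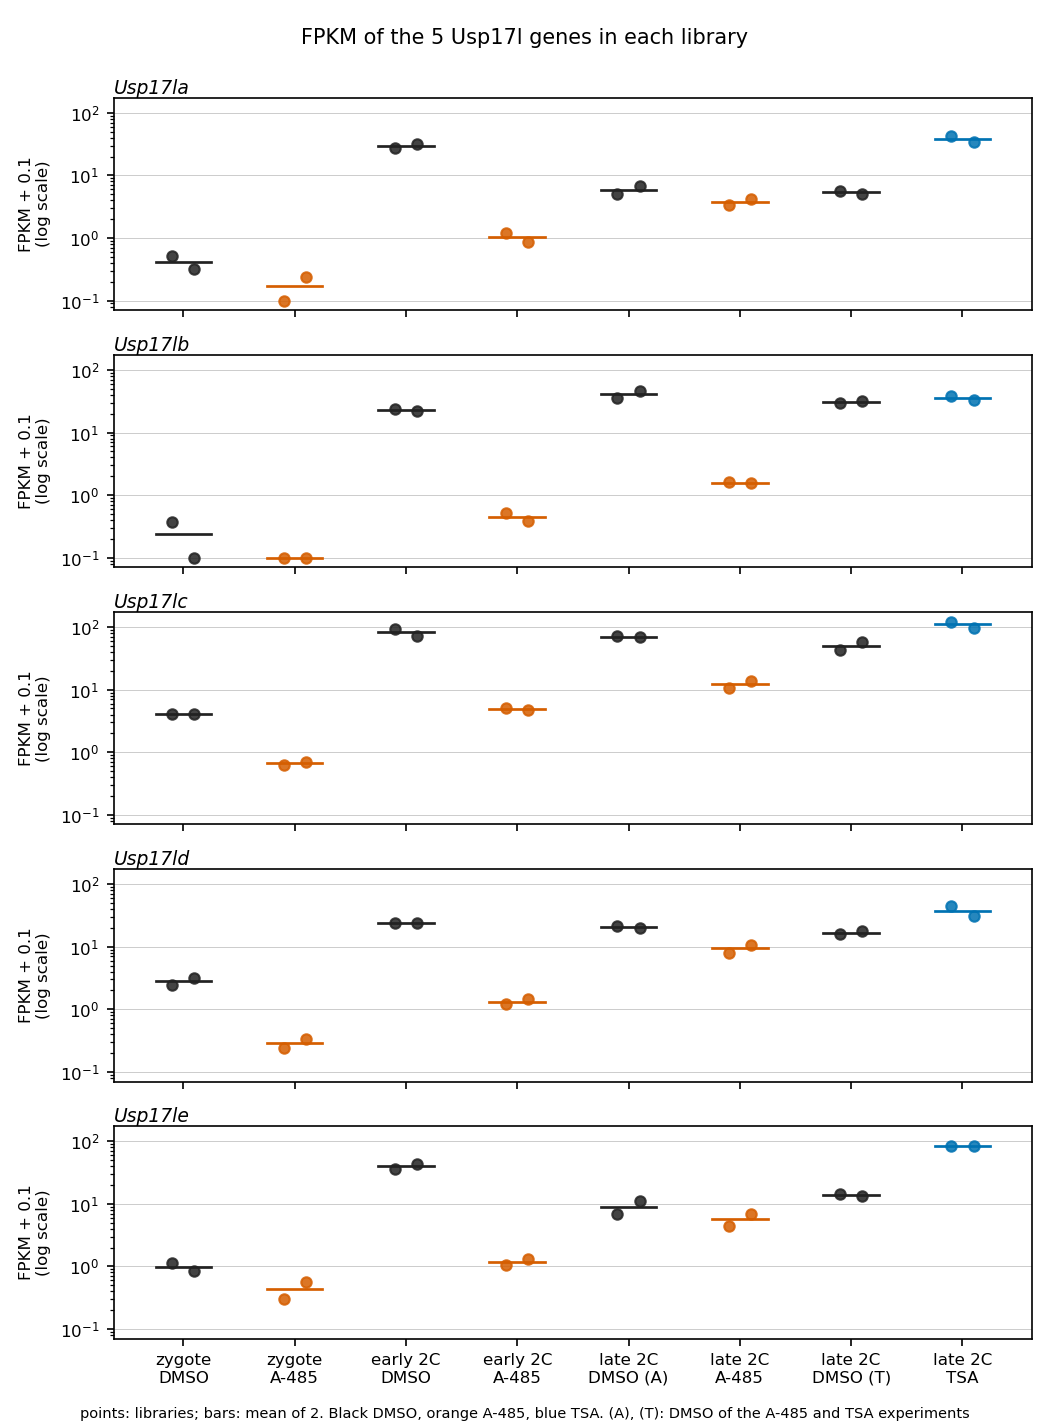
FPKM plus 0.1 (log axis) of each Usp17l gene in every library; points are libraries, horizontal bars the mean of 2, black DMSO, orange A-485 and blue TSA, with (A) and (T) for the DMSO groups of the A-485 and TSA experiments. The A-485 points of all 5 genes at early 2-cell (0.28 to 5.05 FPKM) lie below their DMSO points (22.34 to 94.57 FPKM), and the TSA points are the highest of a row for every gene but Usp17lb.

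In DMSO zygotes the transcripts came mainly from one pair of copies. Usp17lc stood at 4.01 and 3.99 FPKM and Usp17ld at 2.35 and 3.12 FPKM in the 2 libraries. Usp17le stood at 1.03 and 0.73 FPKM, from 52.28 and 36.1 counts, and Usp17la at 0.42 and 0.22 FPKM, from 31 and 16 counts. Usp17lb was found with 11 counts in the first library and 0 in the second, where a count of 0 allows up to 3. The 2 members of the centromere-proximal group, Usp17lc and Usp17ld, made up 49.6 ± 0.0884% and 33.9 ± 6.81% of the family's FPKM at this stage.

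From zygote to early 2-cell, all 5 genes rose in DMSO embryos. Usp17la reached 27.63 and 32.23 FPKM, Usp17lb 23.35 and 22.34 FPKM and Usp17le 35.48 and 43.95 FPKM. Usp17lc reached 94.57 and 71.65 FPKM and Usp17ld 24.10 and 23.52 FPKM. Both early 2-cell libraries lay above both zygote libraries for 5 of 5 members, as for 33.7% of all genes tested. The log2 fold changes were 7.44 ± 0.477 (Usp17lb, SE), 6.62 ± 0.225 (Usp17la), 5.56 ± 0.201 (Usp17le), 4.47 ± 0.150 (Usp17lc) and 3.21 ± 0.191 (Usp17ld), with adjusted p from 1.04e-10 to 3.33e-08 in edgeR's quasi-likelihood test. The value of Usp17lb rests on 11 zygote counts, all in the first library: it was 6.47 without the second zygote library and 12.58 without the first, where the remaining library was at 0 and the fitted value is no bound. Its place in this order is therefore uncertain. A call required an adjusted p under 0.05, a change of at least 2-fold and a mean of at least 1 FPKM in either group. By that rule 11.2% of the 20106 genes tested rose, beside 5 of 5 members. The 3 copies that were lowest in the zygote rose most, and the share of Usp17ld went from 33.9 ± 6.81% to 11.9 ± 0.279% and that of Usp17la from 3.96 ± 1.75% to 15.1 ± 2.24%.

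Between early and late 2-cell in DMSO the family divided. Usp17la fell to 5.02 and 6.56 FPKM, a log2 change of −2.38 ± 0.177 (edgeR, adjusted p = 7.03e-07), and Usp17le fell to 6.67 and 10.95 FPKM, a change of −2.17 ± 0.217 (adjusted p = 7.05e-06). Usp17lb stood at 35.64 and 45.51 FPKM, both above the early 2-cell libraries, with a log2 change of 0.80 ± 0.165 (adjusted p = 0.00219), which passed the p threshold but was under 2-fold. Usp17lc stood at 72.68 and 68.27 FPKM, inside or just below its early 2-cell range, and Usp17ld at 21.36 and 20.18 FPKM. Their changes of −0.24 ± 0.147 and −0.20 ± 0.159 did not pass (adjusted p = 0.228 and 0.366). In this comparison 8.92% of 20326 genes were called lower and 15.9% higher, and the members counted 2 lower and 0 higher. The 2 genes that fell, Usp17la and Usp17le, lie in the same group of 3 as Usp17lb, which did not.

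The second late 2-cell DMSO group, from the TSA experiment, gave a check on these levels. Usp17la stood there at 5.61 and 4.97 FPKM, Usp17lb at 29.56 and 31.64, Usp17lc at 42.96 and 56.95, Usp17ld at 15.69 and 17.81 and Usp17le at 14.14 and 13.18. The ranges of the 2 DMSO groups overlapped for Usp17la and not for the other 4, of which Usp17le was higher in the TSA experiment and the other 3 lower (21.2% and 21.1% of all genes tested did not overlap in these directions). None was called in edgeR's test, where 1.32% of 20647 genes were called in either direction. The 3 members under 0.05 before adjustment were Usp17lc (log2 difference −0.47 ± 0.137, adjusted p = 0.12), Usp17le (0.67 ± 0.222, adjusted p = 0.175) and Usp17lb (−0.34 ± 0.140, adjusted p = 0.314). Usp17le passed as 1 call when the second DMSO library of the A-485 experiment was left out (1.02, adjusted p = 0.0066). DESeq2 likewise called 0 of the 5 with all 4 libraries.

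The composition of the family changed with these levels. In both late 2-cell DMSO groups Usp17lb was the second most abundant copy, with 27.6 ± 3.42% and 26.4 ± 1.40% of the summed FPKM, against 11.5 ± 0.107% at early 2-cell. Within each library, the log2 ratio of Usp17lb to its neighbor Usp17la was 2.83, 2.79, 2.40 and 2.67 in the 4 late 2-cell DMSO libraries. It was below 0 in all other libraries that had both genes: −0.64 in the first DMSO zygote library, from few counts, −0.24 and −0.53 at early 2-cell with DMSO, −1.44 and −1.42 at early 2-cell with A-485, −1.08 and −1.48 at late 2-cell after A-485, and −0.15 and −0.05 with TSA. A ratio within a library does not depend on how libraries were scaled. Both treatments thus gave late 2-cell embryos in which Usp17lb was no longer above Usp17la, although the summed level of the family was below its DMSO control in one and above it in the other.

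**Figure D2:**
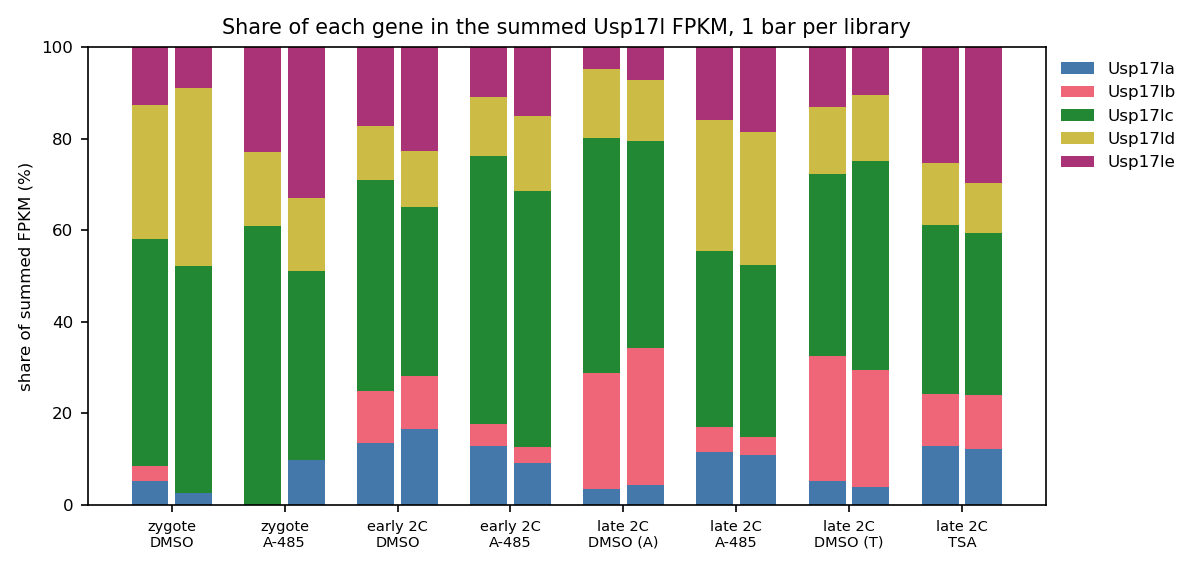
Share of each Usp17l gene in the summed FPKM of the family (percent, y axis), with 1 stacked bar per library and 2 bars per group. The share of Usp17lb is 25.2 to 30.0% in the 4 late 2-cell DMSO libraries and at most 11.8% in every other library.

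The first question of the treatments was what inhibition of CBP and p300 did to the family at each stage. In zygotes, A-485 lowered the 2 copies that were well expressed there. Usp17lc stood at 0.53 and 0.59 FPKM in the treated libraries, against 4.01 and 3.99 with DMSO, a log2 change of −2.83 ± 0.259 (edgeR, adjusted p = 0.000315). Usp17ld stood at 0.14 and 0.23 FPKM, against 2.35 and 3.12, a change of −3.88 ± 0.417 (adjusted p = 0.00127). The treated values of Usp17ld rest on 7.97 and 12.75 counts, of which 19.2% and 12.2% is RSEM's posterior standard deviation. Only 0.0657% of the 18258 genes tested were called lower in zygotes, which is 12 genes, and Usp17lc and Usp17ld were 2 of them.

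The other 3 members were too low in zygotes for a firm statement. Usp17le stood at 0.20 and 0.47 FPKM with A-485, below the DMSO libraries, with a log2 change of −1.38 ± 0.614 (adjusted p = 0.83). Usp17la was found with 0 and 11 counts, against 31 and 16, and had a change of −2.15 ± 1.20 (adjusted p = 0.866). Usp17lb was at 0 counts in both treated libraries and at 11 and 0 with DMSO, so that no fold is given. Both treated libraries lay below both DMSO libraries for 4 of 5 members, all but Usp17lb, and for 17.5% of all genes tested. A change in these 3 was not detectable at this depth. Summed over the family, 57 and 90 counts with A-485 stood against 488 and 471.01 with DMSO, a log2 change of −2.81 ± 0.234 (adjusted p = 9.67e-05).

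At early 2-cell, when A-485 had been present through the preceding cell cycle, all 5 members were lower. Usp17la stood at 1.11 and 0.75 FPKM, Usp17lb at 0.41 and 0.28, and Usp17le at 0.94 and 1.23. Usp17lc stood at 5.05 and 4.59 FPKM and Usp17ld at 1.11 and 1.35. For 5 of 5 members the treated libraries lay below both DMSO libraries given above, as for 28.5% of all genes tested. The log2 changes were −6.13 ± 0.272 for Usp17lb, −5.15 ± 0.199 for Usp17le, −4.99 ± 0.202 for Usp17la, −4.24 ± 0.198 for Usp17ld and −4.09 ± 0.154 for Usp17lc (edgeR, adjusted p from 3.47e-09 to 1.83e-08). All 5 members were called lower, beside 7.9% of 20872 genes. The summed family changed by −4.49 ± 0.0998, a 22.5-fold difference (adjusted p = 1.37e-10).

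Some increase from the zygote remained under A-485. Usp17lc rose from the treated zygote to the treated early 2-cell embryo by 3.30 ± 0.283 on the log2 scale (edgeR, adjusted p = 6.54e-07), Usp17ld by 2.93 ± 0.643 (adjusted p = 0.00219) and Usp17le by 1.88 ± 0.662 (adjusted p = 0.0342), beside 6.85% of 19858 genes called higher. The rise of Usp17le was not significant without the first zygote A-485 library (1.40, adjusted p = 0.174) or without the second early 2-cell A-485 library (1.71, adjusted p = 0.123). Usp17la went from 0 and 11 counts to 61 and 44, and Usp17lb from 0 and 0 to 11 and 9, and both stayed under 1 FPKM on average. Scaling the libraries to the mitochondrial protein genes, whose share rose from zygote to early 2-cell, lowered the median of all genes in this comparison from 0.14 to −1.55 and left 1 of the 3 calls.

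The effect of A-485 was larger at early 2-cell than in the zygote for 2 members, by a test of the difference itself. The log2 change was more negative by 3.71 ± 0.448 for Usp17le (−3.71, edgeR interaction, adjusted p = 9.21e-06) and by 1.21 ± 0.246 for Usp17lc (−1.21, adjusted p = 0.00313). For Usp17ld, which was already strongly reduced in the zygote, the difference was −0.31 ± 0.446 (adjusted p = 0.817). For Usp17la it was −2.77 ± 0.831 (adjusted p = 0.0555), with the sign reversed when the zygote A-485 library that held its 11 counts was left out (2.35, adjusted p = 0.617). In this test 4.65% of 23002 genes had a more negative effect at early 2-cell.

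By late 2-cell, after A-485 had been washed off, the members had come apart. Usp17lb stayed low, at 1.53 and 1.44 FPKM against 35.64 and 45.51 with DMSO, a log2 change of −4.97 ± 0.263 (edgeR, adjusted p = 3.96e-08). Usp17lc stood at 10.71 and 13.67 FPKM against 72.68 and 68.27, a change of −2.87 ± 0.154 (adjusted p = 4.49e-08). Usp17ld stood at 7.97 and 10.66 FPKM against 21.36 and 20.18, a change of −1.36 ± 0.229 (adjusted p = 0.00055). These 3 were called lower, beside 16.8% of 22822 genes. The 7 fibroblast markers summed to 14.3 and 16.7 FPKM after A-485 against 0.13 to 0.64 with DMSO, nearly all of it Pdgfra (13.9 to 15.9 FPKM after A-485), and their part in these changes was not tested. Usp17la stood at 3.23 and 4.03 FPKM against 5.02 and 6.56 and changed by −0.87 ± 0.309 (adjusted p = 0.045), which is under 2-fold. Usp17le stood at 4.41 and 6.78 FPKM against 6.67 and 10.95, ranges that overlapped, and changed by −0.85 ± 0.341 (adjusted p = 0.0707). The treated libraries of the other 4 members lay below both DMSO libraries, as for 26.6% of all genes tested.

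The 2 members that missed the call were thus the 2 that had fallen in DMSO embryos over the same time. Whether they pass depends on 1 library and on scaling. Without the second late 2-cell A-485 library both were called lower (Usp17la −1.03, adjusted p = 0.0241, and Usp17le −1.17, adjusted p = 0.0104). Scaling to the mitochondrial protein genes, whose share was higher after A-485 (5.43 and 5.35% against 2.44 and 2.35%), also made both pass, with −1.85 for Usp17la and −1.84 for Usp17le. That scaling moved the median of all genes from 0.28 to −0.69, and called 6874 genes lower and 1177 higher, against 3824 and 2406. Relative to the median of all genes, the change of every member was negative. A rescaling shifts all genes by nearly the same amount and can hardly alter this, so that it is no second test.

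Between the treated stages, 3 members rose, of which Usp17la and Usp17le had fallen in DMSO embryos. From early to late 2-cell after A-485, Usp17ld rose by 2.61 ± 0.344 on the log2 scale (edgeR, adjusted p = 3.6e-06), Usp17le by 2.06 ± 0.429 (adjusted p = 0.000729) and Usp17la by 1.67 ± 0.418 (adjusted p = 0.00368), beside 12.8% of 22854 genes called higher. The rise of Usp17la was not significant without the second early 2-cell A-485 library (1.39, adjusted p = 0.0504). Usp17lc changed by 0.91 ± 0.231 (adjusted p = 0.00416), under 2-fold, and passed without the first early 2-cell A-485 library (1.00, adjusted p = 0.0196). Usp17lb went from 11 and 9 counts to 27.03 and 28, with a change of 1.87 ± 0.913 that did not pass (adjusted p = 0.128). Mitochondrial scaling moved the median of all genes from 0.31 to −0.59, ended the call of Usp17la (0.78, adjusted p = 0.183) and put Usp17lc at 0.0095 (adjusted p = 0.983), so that 2 of the 3 calls remained. Total count scaling (median 0.59) put Usp17lc past 2-fold (1.20, adjusted p = 0.00049), for 4 calls.

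The A-485 effect differed between early and late 2-cell for all 5 members. The log2 effect was less negative at late 2-cell by 4.39 ± 0.380 for Usp17le (edgeR interaction, adjusted p = 3.97e-09), 4.21 ± 0.342 for Usp17la (adjusted p = 1.44e-09) and 2.97 ± 0.318 for Usp17ld (adjusted p = 1.18e-07). It was less negative by 1.31 ± 0.208 for Usp17lc (adjusted p = 3.43e-05) and by 1.24 ± 0.404 for Usp17lb (adjusted p = 0.0308). In this test 10.1% of 25141 genes had a higher effect at late 2-cell, and the median difference of all genes was 0.44. The difference of Usp17lb lost significance with 7 of the 8 libraries left out in turn, with values from 0.91 to 1.41 and adjusted p from 0.0548 to 0.183, and in DESeq2 (1.16, adjusted p = 0.0744). Mitochondrial scaling ended the calls of Usp17lb (0.19, adjusted p = 0.872) and Usp17lc (0.26, adjusted p = 0.49), so that 3 of 5 remained.

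The close pair Usp17lc and Usp17ld also responded unequally after A-485. The FPKM ratio of Usp17lc to Usp17ld was 3.40 and 3.38 in late 2-cell DMSO embryos and 1.34 and 1.28 after A-485. In the early 2-cell libraries it was 3.92 and 3.05 with DMSO and 4.55 and 3.40 with A-485, which overlapped. Reads that fit both copies had been divided by RSEM, and its posterior standard deviation was 2.08 and 2.15% of the count of Usp17lc and 3.46 and 2.88% of that of Usp17ld in the late 2-cell A-485 libraries.

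**Figure D3:**
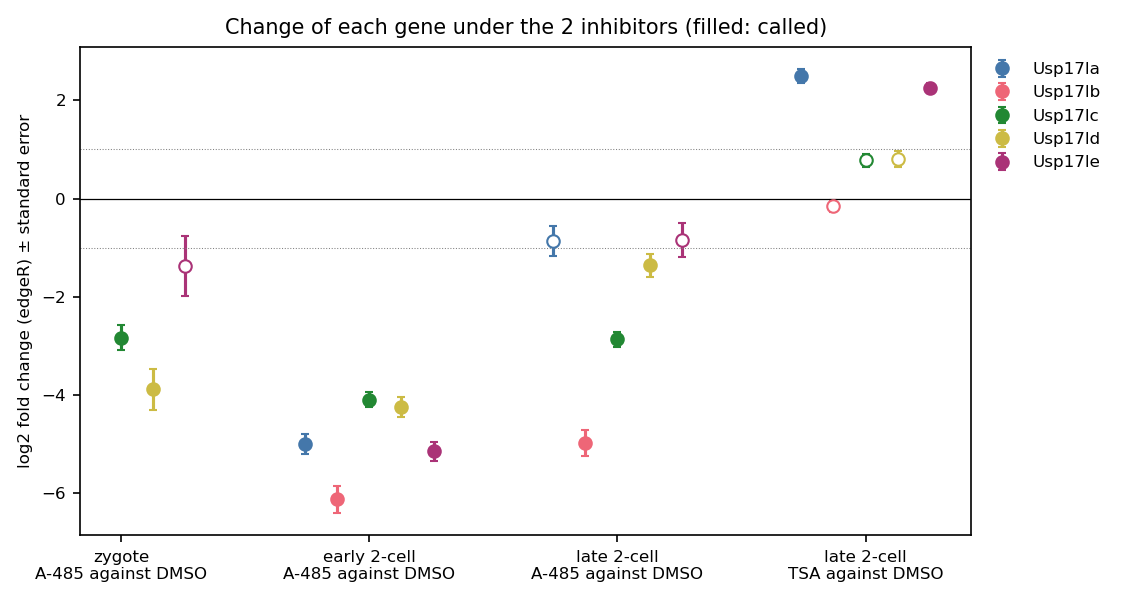
Log2 fold change (edgeR, y axis) of each Usp17l gene in the 4 treatment comparisons; error bars are ± 1 standard error, filled points were called, open points were not, and dotted lines mark a 2-fold change. Usp17la and Usp17lb are left out for zygotes, where a library of each treated group had 0 counts. At late 2-cell Usp17lb is the lowest point under A-485 (−4.97) and the only one not above 0 under TSA (−0.15).

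The second question was what inhibition of deacetylases did. With TSA, Usp17la stood at 42.30 and 34.28 FPKM against 5.61 and 4.97 with DMSO, a log2 change of 2.50 ± 0.136 (edgeR, adjusted p = 1.46e-07). Usp17le stood at 83.92 and 83.18 FPKM against 14.14 and 13.18, a change of 2.25 ± 0.101 (adjusted p = 3.51e-08). Both reached levels above those of early 2-cell DMSO embryos. They were the 2 members called higher, beside 13.8% of 23429 genes. In the same comparison the 7 red blood cell markers summed to 45.3 to 47.0 FPKM with TSA against 1.03 to 1.50 with DMSO, and 3 of 4 tested were called higher. Most of this was Hba-a2, a globin gene, at 35.4 to 39.8 FPKM, while Hbb-bs and Hbb-bt, the adult beta globins, were at 0 in all 16 libraries. The 7 fibroblast markers summed to 9.70 to 10.8 FPKM against 1.09 to 1.98, with 3 of 4 tested called higher and Lum at 0 in all 16 libraries. The part of these genes in the changes with TSA was not tested.

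Usp17lc and Usp17ld also stood higher with TSA, though under 2-fold. Usp17lc was at 121.60 and 98.38 FPKM against 42.96 and 56.95 (0.78 ± 0.132, edgeR, adjusted p = 0.000667), and Usp17ld at 44.17 and 30.66 against 15.69 and 17.81 (0.80 ± 0.161, adjusted p = 0.00209). Usp17lb stood at 38.01 and 33.08 FPKM against 29.56 and 31.64, and its change of −0.15 ± 0.118 did not pass (adjusted p = 0.356). In FPKM, both TSA libraries lay above both DMSO libraries for 5 of 5 members, but also for 50.5% of all genes tested. The sign of Usp17lb depended on scaling: its FPKM were higher with TSA, and total count scaling gave 0.21 (adjusted p = 0.184). Total count scaling moved the median of all genes from 0.13 to 0.48, raised Usp17lc and Usp17ld past 2-fold (1.14 and 1.16, adjusted p = 4.8e-05 and 0.000182), and called 4106 genes higher and 2385 lower, against 3237 and 3247. The 2-fold limit was also passed by Usp17lc without the second DMSO library (1.00) and by Usp17ld without the second TSA library (1.06). The summed family changed by 1.09 ± 0.0935 (adjusted p = 4.4e-06). That sum was under 2-fold without the first DMSO library (0.97) or without the first TSA library (0.97).

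The responses to the 2 inhibitors at late 2-cell differed for all 5 members. The TSA effect was higher than the A-485 effect, each against its own DMSO group, by 4.93 ± 0.266 for Usp17lb (edgeR interaction, adjusted p = 7.61e-10), 3.76 ± 0.207 for Usp17lc (8.28e-10), 3.47 ± 0.282 for Usp17la (8.08e-08), 3.21 ± 0.297 for Usp17le (3.98e-07) and 2.27 ± 0.280 for Usp17ld (1.14e-05). In the same test 12.7% of 26554 genes had the higher effect under TSA. The members ranked differently under the 2 inhibitors. Usp17lb had the most negative effect under A-485 and none that passed under TSA, whereas Usp17la and Usp17le had the smallest effects under A-485 and the largest under TSA. Windows, doses and collection differed between the experiments.

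Ordered by level over the 8 groups, Usp17la, Usp17lc, Usp17ld and Usp17le were highest with TSA, followed by early 2-cell DMSO, without overlap of libraries. Usp17lb was highest in late 2-cell DMSO of the A-485 experiment, overlapping with TSA, and its early 2-cell DMSO level lay below both late 2-cell DMSO groups. The lowest group of every member was the A-485 zygote. Neighbors in the order overlapped for Usp17la between the 2 late 2-cell DMSO groups, for Usp17lc between early 2-cell and late 2-cell DMSO of the A-485 experiment, for Usp17le between late 2-cell DMSO and A-485 and between early 2-cell A-485 and zygote DMSO, and for Usp17lb between the 2 zygote groups. Over the 8 group means on log2(FPKM + 0.1), pairs of members had Pearson r from 0.906 (Usp17la and Usp17lb) to 0.987 (Usp17la and Usp17le). The points share libraries and the large step from zygote to 2-cell, so that these values describe only.

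Under A-485, the genes of other deubiquitinases gave few calls before the late 2-cell stage, and so did all genes in zygotes. Of 49 other Usp genes, 48 tested in zygotes gave 0 calls in edgeR (median log2 change −0.0014, all genes −0.0052), against 2 of 5 Usp17l members. There 0.0657% of all genes were called lower and 0.00548% higher, so that 0 calls of 48 do not set these genes apart. At early 2-cell with A-485, 2 of 48 were lower and 0 higher (median 0.037, all genes 0.0038), where 7.9% of all genes were lower and 0.402% higher. At late 2-cell after A-485, 17 of 48 were lower and 2 higher (median −0.097, all genes 0.28), where 16.8% of all genes were lower and 10.5% higher. With TSA 13 of 49 were lower and 3 higher (median −0.17, all genes 0.13), where 13.9% of all genes were lower and 13.8% higher. From zygote to early 2-cell with DMSO, 5 of 48 rose and 8 fell, where 11.2% of all genes rose and 14.9% fell. Of the 4 with the highest mean FPKM, Usp9x, Usp15 and Usp1 were called in none of these 4 comparisons. The remaining one, Usp16, which removes ubiquitin from histone H2A, stood at 220 to 254 FPKM with DMSO and at 76.6 to 108 after A-485 at late 2-cell (−1.52 ± 0.110, adjusted p = 4.83e-07), and at 297 to 310 with DMSO and 138 to 153 with TSA (−1.46 ± 0.0679, adjusted p = 4.53e-08). Usp16 already stood at 105 to 107 FPKM in DMSO zygotes, where the 5 Usp17l genes summed to 8.06 and 8.08. Of 37 genes of the other deubiquitinase families, 0 were called in zygotes or at early 2-cell, 4 rose and 10 fell at late 2-cell after A-485 (median 0.18, all genes 0.28), and 5 rose and 8 fell with TSA (median −0.057, all genes 0.13), beside the same shares of all genes. From zygote to early 2-cell with DMSO, 1 of 36 tested rose and 8 fell.

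Proteins reported as substrates of the human enzyme USP17 (also called DUB3) were read as a list of 7 genes. None was called in zygotes (median log2 change 0.048, all genes −0.0052), and 1 was lower at early 2-cell with A-485 (median −0.15, all genes 0.0038), beside 7.9% of all genes. At late 2-cell, 1 was lower after A-485 (median −0.57, all genes 0.28), beside 16.8% of all genes. With TSA 1 was higher and 1 lower (median −0.37, all genes 0.13), beside 13.8% and 13.9%. Suds3, a subunit of the Sin3 corepressor, fell with TSA by 1.11 ± 0.110 on the log2 scale (adjusted p = 1.34e-05). H2afx and Hdac2 were called in none of the 4 treatment comparisons, but were not level with TSA. H2afx fell by 0.94 ± 0.102, under 2-fold (edgeR, adjusted p = 2.57e-05). Hdac2 stood at 73.8 to 78.3 FPKM with TSA against 35.3 to 38.9 with DMSO. RNA levels of a substrate do not measure its ubiquitination.

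Genes known for transcription at the 2-cell stage moved in the same comparisons. Of 26 such genes, 23 rose from zygote to early 2-cell (median 7.11, all genes 0.078), 24 were lower with A-485 at early 2-cell (median −6.90, all genes 0.0038) and 24 at late 2-cell (median −2.67, all genes 0.28). Of all genes, 11.2% rose, and 7.9% and 16.8% were lower with A-485. With TSA, 13 were higher and 3 lower (median 1.00, all genes 0.13), beside 13.8% and 13.9% of all genes. Zscan4f, a telomere-associated zinc finger gene, stood at 196 to 231 FPKM at early 2-cell with DMSO and 0 to 0.39 with A-485, and at 40.5 to 41.8 with late 2-cell DMSO and 102 to 152 with TSA (1.24 ± 0.127, adjusted p = 1.66e-05). The other 3 of the 4 genes of the list with the highest mean FPKM were lower with TSA. Dppa4, which encodes a chromatin-associated protein of early embryos, stood at 287 to 289 FPKM with late 2-cell DMSO and 27.3 to 36.2 with TSA (−3.16 ± 0.10, adjusted p = 5.98e-09). AF067063 stood at 166 to 177 and 106 to 110 FPKM (−1.13 ± 0.0975, adjusted p = 4.6e-06). Sp110 stood at 255 to 268 and 186 to 190 FPKM, a change under 2-fold (−0.85 ± 0.0614, adjusted p = 1.16e-06). All 4 were called lower with A-485 at early and at late 2-cell. In zygotes 1 of 20 was called lower, beside 0.0657% of all genes. This was Duxf3, which encodes the Dux factor. It stood at 6.81 to 7.23 FPKM with DMSO and 0.22 to 0.27 with A-485 (−4.67 ± 0.288, adjusted p = 7.27e-06). At early 2-cell Duxf3 stood at 4.92 to 5.16 and 3.57 to 4.88 FPKM (−0.24 ± 0.279, adjusted p = 0.667), while all 5 Usp17l genes differed. With TSA it stood at 17.2 to 20.0 against 3.31 to 5.69 FPKM (1.65 ± 0.229, adjusted p = 0.000165). Usp17lc, Usp17ld and Duxf3 were thus lower in the same zygote libraries, and no link between them was tested.

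The genes whose pattern came closest to the summed family were found by Pearson r over the 8 group means on log2(FPKM + 0.1), among 12161 genes with at least 5 FPKM in some group. The first 10 were Gm5788 (r = 0.992), Zfp352 (r = 0.992), Gm9044, Gm9040, Pramef25, Gm38153, AC127331.6, Gm38258, Gm4027 and Gm11237 (r = 0.986). Zfp352, a zinc finger gene, averaged 0.95 FPKM in DMSO zygotes, 117 at early 2-cell, 1.40 with A-485 at early 2-cell and 123 with TSA. Gm9044 and Gm9040 had equal means in 7 of the 8 groups, as near-identical copies would, and are uncertain as single genes. With a pseudocount of 1, 4 of the 10 were again among the first 10. Duxf3 ranked 2206, with r = 0.707.

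The immediate surroundings of the members were mostly silent. Within 250 kb of a member's start lay 94 other genes, of which 72 were olfactory receptor genes or pseudogenes and 50 were at 0 in all groups. A mean of 1 FPKM or more in some group was reached by 8: Olfr665, Gm5900, Gm45556, Gm45272, Gm45275, Gm25774, Gm23550 and Gm25171. The highest was the long noncoding RNA Gm45272, 51745 bp from the start of Usp17la, with 301 FPKM in DMSO zygotes, 114 at early 2-cell and 45.3 at late 2-cell, a course opposite to that of Usp17la up to early 2-cell. None of the neighbors was called in the 4 treatment comparisons, in which 8, 12, 5 and 7 could be tested. Of all genes, 0.0657, 7.9, 16.8 and 13.9% were called lower there and 0.00548, 0.402, 10.5 and 13.8% higher. With so few neighbors tested, 0 calls do not set them apart.

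Open chromatin was read from 4 lists of peaks, called over both replicates of a stage and treatment. No member had a peak within 1 kb of an annotated transcript start in any list, whereas 12.7% of 54487 genes did in late 1-cell DMSO, 11.7% in late 1-cell A-485, 16% in early 2-cell DMSO and 19.7% in early 2-cell A-485. Among the 19277 genes with at least 1 FPKM in some group these shares were 30.2, 28.7, 37.9 and 46.9%. The start regions of the members are near copies of each other, unlike those of most genes. How reads that fit several copies were placed was not given, and their part in the missing start peaks was not tested. Within 5 kb, 1 member had a peak, Usp17lb in early 2-cell DMSO. Peaks lay around the genes instead. Within 50 kb of the 2 gene groups, early 2-cell DMSO embryos had 8 peaks, 4 at Usp17ld and Usp17lc and 4 at Usp17le, Usp17lb and Usp17la. These are 14.8 and 20.6 peaks per Mb, against 12.8 per Mb over chromosome 7. Late 1-cell DMSO embryos had 1 peak there, 5.12 kb upstream of Usp17la, and both A-485 lists had 0. The nearest early 2-cell A-485 peak was 423 to 728 kb from the members' starts. Loss of a peak was frequent, since 78.3% of all early 2-cell DMSO peaks and 51.2% of late 1-cell DMSO peaks overlapped no A-485 peak, and the early 2-cell lists held 27693 and 13712 peaks.

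**Figure D4:**
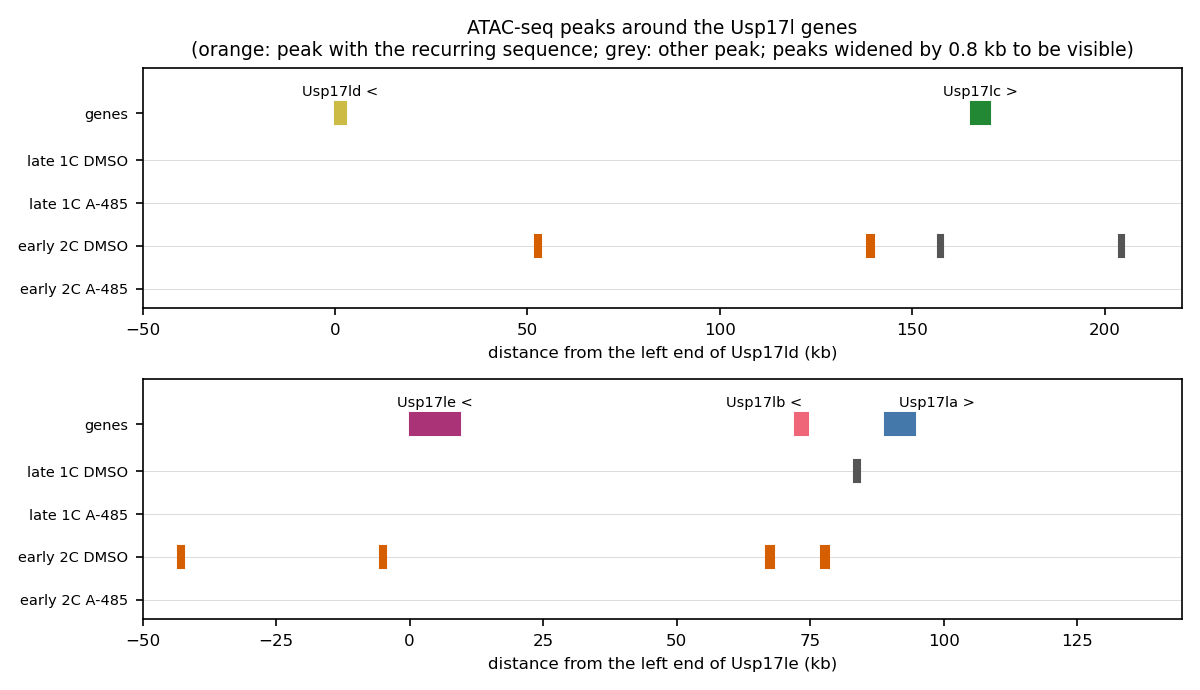
ATAC-seq peaks (rows: stage and treatment) around Usp17ld and Usp17lc (top) and Usp17le, Usp17lb and Usp17la (bottom); the x axis is the distance in kb from the left end of the first gene, < and > give the strand, and peaks are widened to be visible. Early 2-cell DMSO has 8 peaks, 6 of them with the recurring sequence (orange), late 1-cell DMSO has 1, and the A-485 rows have none.

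The 8 early 2-cell DMSO peaks were all intergenic in GENCODE M21, with fold enrichments of 7.02 to 17.1 over background. In distance from the starts, they lay 2.83 kb upstream of Usp17lb, 7.82 kb upstream of Usp17lc, 10.75 kb upstream of Usp17la (the same peak as for Usp17lb), 14.22 kb downstream of Usp17le and 49.52 kb upstream of Usp17ld at the nearest. After they had been seen, their sequences were compared. With the peak 2.83 kb upstream of Usp17lb (chr7:104845430-104846255) as the reference, 5 of the other 7 aligned over most of their length, or 59.8% of it in 1 case. The identities were 94.13% over 818 bases (chr7:103302029-103302883), 93.49% over 568 (chr7:103388518-103389467), 93.27% over 401 (chr7:104762843-104763246), 91.24% over 753 (chr7:104835168-104835927) and 89.2% over 324 (chr7:104725114-104725440). A stretch of 85 bases of 5 of these peaks is shown, because both gene groups carry it, with the words TCAAGGTCA, a sequence of the kind orphan nuclear receptors bind, and TAATCC, the reverse of GGATTA, in capitals.
Between Usp17ld and Usp17lc, chr7:103302573-103302657, minus strand: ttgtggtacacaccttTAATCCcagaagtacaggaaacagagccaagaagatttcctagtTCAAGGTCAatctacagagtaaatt
Between Usp17ld and Usp17lc, chr7:103389117-103389201, plus strand: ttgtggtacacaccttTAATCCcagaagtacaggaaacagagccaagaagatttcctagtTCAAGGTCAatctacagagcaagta
Beyond Usp17le, chr7:104725309-104725393, plus strand: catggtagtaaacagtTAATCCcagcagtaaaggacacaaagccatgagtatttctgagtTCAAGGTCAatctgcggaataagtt
Downstream of Usp17lb, chr7:104835624-104835708, minus strand: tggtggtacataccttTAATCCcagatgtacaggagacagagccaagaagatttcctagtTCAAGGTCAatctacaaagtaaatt
Upstream of Usp17lb, chr7:104845648-104845732, plus strand: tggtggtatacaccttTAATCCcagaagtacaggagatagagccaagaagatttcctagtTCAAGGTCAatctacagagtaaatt

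Against the reference, the stretches differed at 4, 7, 24 and 5 of the 85 bases, in the order shown. In the central 300 bases of a peak, TCAAGGTCA occurred in 4 of the 8 peaks and in 2.79% of all 27693 early 2-cell DMSO peaks, and GGATTA in 8 of 8 and in 55.4%. CCAAT occurred in 5 of 8 (29.5% of all), and GATTNAATC (0.534%), TATAAA (9.97%) and GGGCGG (20.7%) in 0 of 8. The peaks share their origin as copies and are not independent. No repeat annotation was consulted, and whether the stretch belongs to a repeat family found widely in the genome was not tested.

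The closest copies of the sequence were those near the members. Of the 27685 other early 2-cell DMSO peaks, 2 shared at least 20 words of 20 bases with the reference, and of the 13712 early 2-cell A-485 peaks 0 did. In the GRCm38 genome 177 places shared at least 20 such words with the reference, 6 of them within 250 kb of a member's start. Places with fewer shared words were not counted, so that 177 is no count of all related sequences. All 6 were under an early 2-cell DMSO peak and 0 under an A-485 peak, and of the 171 elsewhere 7 were under an early 2-cell DMSO peak. The 6 near the members were also the closest matches, with at least 72 shared words against at most 44 elsewhere. The reference is itself among the 6 and was chosen as an early 2-cell DMSO peak, so that its own peak status was fixed beforehand. It was also picked from the peaks near the members. The closeness and the peak status of the other local copies are therefore a description. How reads that fit several copies were placed in the peak calling was not given in the sources used here, and their part in which copies carry a peak was not tested.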

How the data were processed

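Total RNA-seq (16 libraries) and ATAC-seq (8 samples, 4 peak lists) were used, and the 8 CUT&RUN samples were not analysed here. Per the submitters' processing notes and methods, RNA reads were trimmed (Trimmomatic 0.39), mapped to GRCm38 (STAR 2.7.8a) and quantified (RSEM 1.3.1). The authors deposited, per gene, the expected count of RSEM, which is not normalized, and the FPKM, which the authors scaled by effective length and mapped fragments. Each deposited peak list, over both replicates, gives an IDR score, a fold enrichment ratio, and -log10 q from the authors' ENCODE pipeline. The ATAC build was not given in the sources used here and was taken as GRCm38.

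Of 55385 genes, 54487 matched GENCODE M21 by versioned identifier. Expected counts were rounded and tested with edgeR 4.0.16 (R 4.3.3; TMM, quasi-likelihood F test, a minimum sum of 10 counts per gene over the libraries compared, Benjamini-Hochberg over all genes). Interactions, called at an adjusted p under 0.05, used the libraries of both comparisons. Standard errors are the log2 fold change divided by the root of F. All 5 members are named, with up to 4 genes per list by mean FPKM, Duxf3, neighbors of at least 1 FPKM and the 10 most similar patterns. A gene that this rule names is not reported here. Members and lists were chosen with earlier results of these data known. Alternatives were DESeq2 1.42.0, other scalings and filters, all libraries in one fit, a replicate block and leaving out each library. On simulated 4-fold changes in 200 genes, the test recovered 196 in the zygote, 93 in the early 2-cell, 34 in the late 2-cell A-485 and 192 in the TSA comparison. Recovery meant an adjusted p under 0.05 in the right direction, without the fold and FPKM limits of a call. Every gene was given the common dispersion of its comparison, so that these counts do not measure the power for real genes. Sequences came from RefSeq (GRCm38.p6).

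Same-numbered replicates did not deviate together (correlations of −0.0508 to 0.0964 in 9 comparisons), so the numbers do not pair the libraries.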

Additional observations from a re-analysis of the deposited data

Results flagged for a closer look

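The effect of A-485 on the family differed between stages, by an interaction test over the 8 libraries of the stages compared (edgeR, adjusted over all genes). Between zygote and early 2-cell it was more negative at early 2-cell for Usp17lc (log2 difference −1.208) and Usp17le (−3.709). Between early and late 2-cell it was less negative at late 2-cell for Usp17la (4.208), Usp17lb (1.237), Usp17lc (1.309), Usp17ld (2.966) and Usp17le (4.389). The late 2-cell embryos had been collected after A-485 was removed and the others had not. Stage, time since removal and any library batch therefore cannot be told apart. The second difference also includes the fall of Usp17la and Usp17le in DMSO embryos, given with the results. Mitochondrial scaling, under which Usp17lb and Usp17lc lost the second difference, is described with the results.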

How the results depend on the processing

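Of the log2 fold changes of single members, 384 under another setting kept their direction and their side of the threshold, 12 came to pass, 8 no longer passed and 1 reversed. With a library left out, 277 kept both, 7 came to pass, 10 no longer passed and 4 reversed. Scaling to the mitochondrial protein genes gave 5 instead of 3 members called at late 2-cell after A-485, 1 instead of 3 between A-485 zygotes and A-485 early 2-cell embryos, 3 instead of 5 differing between early and late 2-cell, and a summed TSA change of 0.90 instead of 1.09. Total count scaling gave 4 instead of 2 members called with TSA and 0.21 for Usp17lb. Without the FPKM limit, 5 members were called between A-485 zygotes and A-485 early 2-cell embryos. At 5 kb, 1 member instead of 0 had an early 2-cell DMSO peak. Leaving out libraries in turn gave 3 to 5 members called at late 2-cell after A-485, 0 to 1 between the DMSO groups, and 0.97 to 1.22 for the summed TSA change. Values that turned direction were Usp17la between the DMSO groups (−0.25 to 0.069) and the change in A-485 effect from zygote to early 2-cell for Usp17la (−3.74 to 2.35), Usp17lb (−6.13 to 0.14) and Usp17ld (−0.61 to 0.093), which rest on libraries with few or 0 counts.

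The replicate block, a fit with the replicate number as a term, called 39 genes in zygotes instead of 13 and 445 between the DMSO groups instead of 273. It added 1 call among the members, the change in A-485 effect on Usp17la from zygote to early 2-cell (−2.78, adjusted p = 0.000163), and changed no other. The numbers do not pair the libraries, and depth limits Usp17la, Usp17lb and Usp17le in zygotes, with 0 to 52.28 counts per library.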
